A study of Homo sapiens with 47 samples.

Results

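The 10 genes described here encode proteins of the tight junction: the claudins CLDN1, CLDN3, CLDN4, CLDN7 and CLDN12, the 4-span proteins OCLN and MARVELD2, the adhesion molecule F11R, and the cytoplasmic plaque proteins TJP1 and CGN. They were chosen by gene name, with earlier results of these data known, and all 10 were found among the 62703 genes listed in the RNA tables. The cells were PC3, an established human prostate cancer line, transduced to overexpress DDC (the decarboxylase that makes serotonin and dopamine) or SLC6A4 (the serotonin transporter), or carrying the empty vector. Each of the 3 lines had 3 RNA libraries, 3 ChIP libraries of H3K4me3Q5ser and 3 of H3K4me3. H3K4me3 is the trimethyl mark of active promoters, and H3K4me3Q5ser is that same tail with serotonin added to its glutamine. Input libraries of DDC and empty-vector cells (3 each) were used as background, and H3K4me3 CUT&Tag values came from 1 library each of SLC6A4 cells with TGM2 knocked down (shTGM2), SLC6A4 cells and empty-vector cells. Which promoter drove the transgenes, and whether a line was a clone or a pool, is not given in the sources used here. No label says that the 3 libraries of a group came from separate cultures, so the p-values measure the spread between these samples, which may be technical.

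Tight junctions seal the space between neighbouring epithelial cells. Claudins of adjacent cells pair to form strands that set which ions pass, and occludin (OCLN) and tricellulin (MARVELD2) sit in the strands and at the corners where 3 cells meet. TJP1 (ZO-1) ties the strands to actin, cingulin (CGN) binds TJP1 and actomyosin, and F11R (JAM-A) is an immunoglobulin-like adhesion molecule that helps set cell polarity.

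The RNA libraries held 17284019 to 21745703 reads in genes. Read pairs in the 19535 ChIP regions numbered 13511040 to 24765380 for H3K4me3Q5ser, 3429714 to 5811116 for H3K4me3 and 1394509 to 1833609 for input. The overexpressed genes were detected in their own lines: DDC had 23 to 31 reads in each DDC library and 0 or 1 in each empty-vector library, and SLC6A4 had 94 to 130 reads in each SLC6A4 library and 0 or 1 in each empty-vector library. The luminal keratin KRT8 had 3774 to 8226 reads per library, and KLK3, which PC3 cells lack, had 0. Summed over 13 genes of PC3 and epithelial identity, the level was 1079 to 1180.35 CPM in DDC, 1569.7 to 1653 CPM in SLC6A4 and 1681 to 1893 CPM in empty-vector libraries. Of 20 markers of other cell types, 4 had no read in any library, the T cell marker CD3E and the fibroblast marker DCN among them. Their summed level, in CPM (reads scaled to the library's total), was 13.4 to 15.5 CPM in DDC, 11.02 to 12.6 CPM in SLC6A4 and 23.2 to 24.9 CPM in empty-vector libraries; PECAM1 had 67 to 84 reads in DDC, 37 to 56 in SLC6A4 and 216 to 244 in empty-vector libraries, while the endothelial markers CDH5 and VWF were at 0 or 1 read per library. Among the other markers, CD68 had 117 to 173 reads per library, COL1A1 9 to 54 and ACTA2 13 to 33. COL1A1 was lower in both lines (log2 -1.64 with DDC and -0.99 with SLC6A4). The part of the marker sums in the results below was not tested.

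Promoter sequence, the 250 bases before the start of the gene's RefSeq promoter entry (GRCh38.p14), was found for 9 of the 10 genes. It is shown for CLDN7 and CLDN1, whose RNA fell most with DDC, for CLDN4, the most abundant of the 10, and for CLDN12, which with CLDN1 lost most H3K4me3Q5ser. The windows are chr17:7262479-7262728 for CLDN7 and chr3:190322447-190322696 for CLDN1, both on the minus strand, and chr7:73830746-73830995 for CLDN4 and chr7:90403211-90403460 for CLDN12, both on the plus strand. Capitals mark CAGGTG or its reverse complement CACCTG, the E-box bound by Snail and ZEB repressors, and GGGCGG or CCGCCC, the core bound by Sp1.
CLDN7: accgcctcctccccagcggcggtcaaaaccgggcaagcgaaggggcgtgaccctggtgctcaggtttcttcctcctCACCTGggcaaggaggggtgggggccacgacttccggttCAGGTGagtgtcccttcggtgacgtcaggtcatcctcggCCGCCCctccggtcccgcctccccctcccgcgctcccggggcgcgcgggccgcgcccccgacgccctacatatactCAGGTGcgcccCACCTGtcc
CLDN1: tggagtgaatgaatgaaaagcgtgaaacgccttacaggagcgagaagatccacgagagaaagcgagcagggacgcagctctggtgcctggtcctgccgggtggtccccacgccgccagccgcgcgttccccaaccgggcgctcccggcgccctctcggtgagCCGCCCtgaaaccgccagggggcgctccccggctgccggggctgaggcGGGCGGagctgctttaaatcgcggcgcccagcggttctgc
CLDN4: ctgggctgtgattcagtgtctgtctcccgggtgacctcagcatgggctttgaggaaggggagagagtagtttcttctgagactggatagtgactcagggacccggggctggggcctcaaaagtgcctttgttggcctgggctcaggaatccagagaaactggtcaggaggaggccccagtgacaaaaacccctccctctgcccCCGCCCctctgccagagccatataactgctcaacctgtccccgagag
CLDN12: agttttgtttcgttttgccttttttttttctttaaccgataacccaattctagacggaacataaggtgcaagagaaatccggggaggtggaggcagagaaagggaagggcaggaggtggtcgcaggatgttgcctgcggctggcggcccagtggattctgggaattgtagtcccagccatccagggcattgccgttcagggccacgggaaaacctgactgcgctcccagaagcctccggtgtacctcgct
CAGGTG in either orientation stood in 2 of the 9 windows, 4 times in CLDN7 and 1 time in OCLN, against 17.5% of all 35116 promoters of the same length. GGGCGG or CCGCCC stood in 7 of 9, missing in CLDN12 and OCLN, against 42.6% of all promoters. The windows ran from 54.4% GC in CLDN12 to 76% in CGN, and all but CLDN12 lay above the 58% median of all promoters. The part of base composition in the motif share was not tested. CACGTG occurred in CGN alone among the 9 (6.34% of all promoters), and neither TATAAA (10.7%) nor AACCGGTT (0.117%), the grainyhead-like core, was in any of them. The CLDN4 window was the one with fewest CpG dinucleotides, 4, against 28 in CLDN1, 25 in CLDN7 and 12 in CLDN12. None of the 5 motifs contains another. A match or its absence describes these letters in this window only.

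RNA of 5 of the 10 genes was lower in DDC cells than in empty-vector cells, and RNA of 4 of those 5 was also lower in SLC6A4 cells. The falls were in claudins CLDN7, CLDN1 and CLDN4 and in F11R in both lines, and in OCLN in DDC cells. CLDN7 fell most, to 0.0829 of its empty-vector level with DDC. No member was higher in either line. Of the 10 genes 9 passed the filter on low values (at least 10 normalised reads in at least 3 libraries), and CGN did not. The 5 called lower with DDC stand beside 8.41% of all 13146 tested genes called lower, 8.94% called higher and 17.4% called in either direction. The 4 called lower with SLC6A4 stand beside 9.28% called lower, 10.2% called higher and 19.4% called in all among 13264. The median log2 change of the 9 was -0.70 with DDC, against 0.0067 over all tested genes, and -0.56 with SLC6A4, against 0.0052. Because the members were chosen with earlier results of these data known, an excess over these shares is no independent evidence. Of the genes called with DDC, 51.5% were higher; with scaling by library size alone 24.8% were, and the median of all genes moved to -0.12. In whole-culture RNA, fewer cells carrying a transcript and less of it per cell cannot be told apart. Both lines are compared with the same 3 empty-vector libraries.

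**Figure D1:**
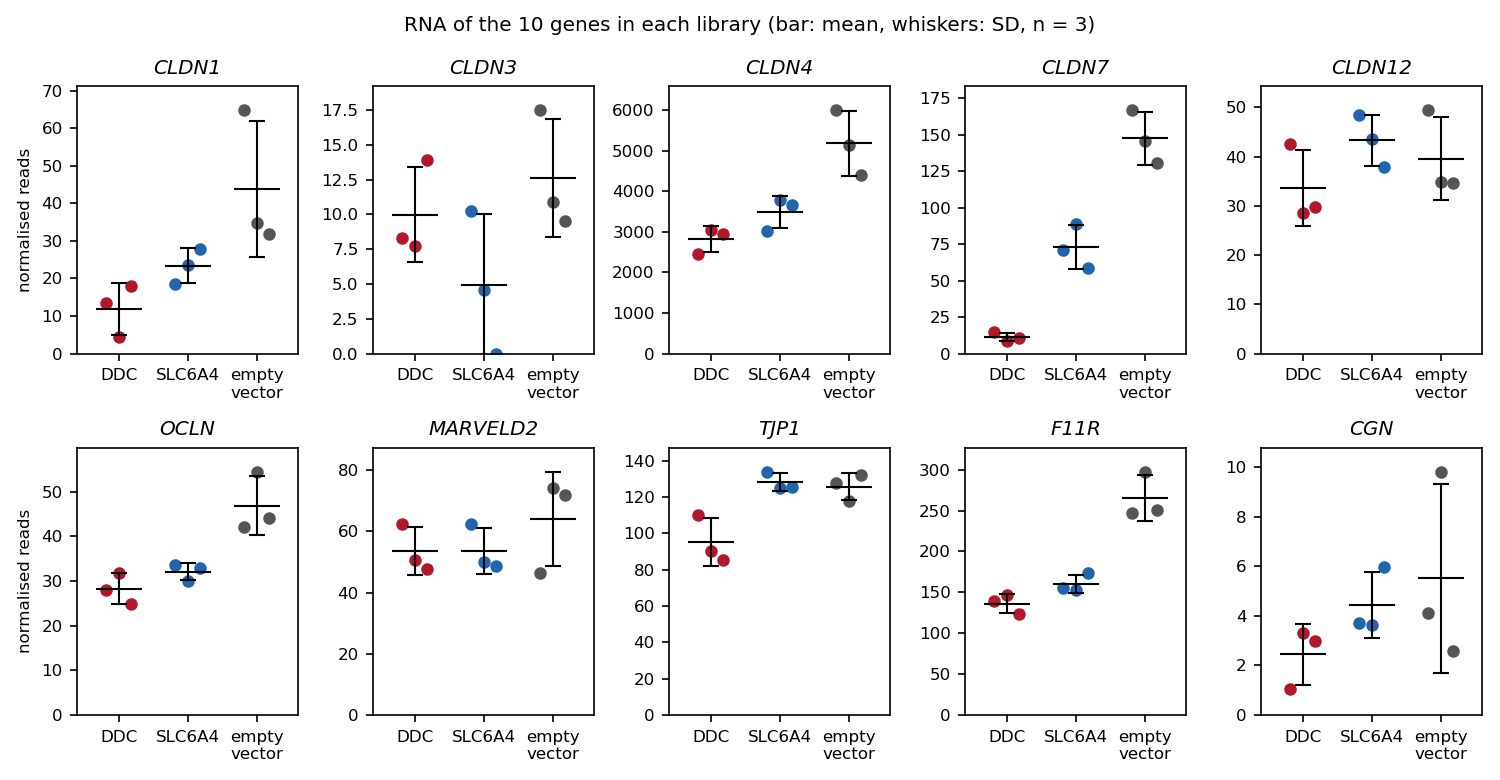
RNA of the 10 genes, in normalised reads on a linear axis from 0, with 1 point per library for DDC, SLC6A4 and empty-vector cells, a bar at the mean and whiskers for the SD (n = 3). CLDN7 lies at 8.80 to 14.5 in DDC, 58.8 to 88.9 in SLC6A4 and 130.5 to 167 in empty-vector libraries, and the groups of CLDN12, MARVELD2, CLDN3 and CGN overlap.

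Per length, CLDN4 stood far above the others. In RPKM, reads per kilobase of the MANE Select transcript scaled to the reads in genes, CLDN4 averaged 81.0 ± 7.17 in DDC, 106 ± 12.1 in SLC6A4 and 162 ± 20.5 in empty-vector libraries (SD, n = 3 each). In empty-vector cells the level of CLDN7 was 5.07, of F11R 3.03, of TJP1 0.929, of MARVELD2 0.771, of CLDN1 0.671, of CLDN12 0.593, of CLDN3 0.523, of OCLN 0.403 and of CGN 0.0571 RPKM. The ranges from TJP1 down to OCLN each overlapped the next, and CGN lay below OCLN without overlap. The place of CLDN7 in that order changed: second at 2.45 RPKM in SLC6A4 and at 5.07 in empty-vector cells, but seventh at 0.364 RPKM in DDC cells, where its range overlapped that of CLDN3.

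CLDN7 (ENSG00000181885, chromosome 17: 7259903 to 7263983, GRCh38), a claudin found along the sides of epithelial cells, had 14.5, 8.80 and 10.9 normalised reads in the 3 DDC libraries, 70.7, 88.9 and 58.8 in the SLC6A4 libraries, and 167, 146 and 130.5 in the empty-vector libraries. The groups did not overlap, with SLC6A4 between DDC and empty vector. These values are scaled over all 9 libraries, while each fold change below was fitted within the table of its pair. The log2 change was -3.59 with DDC (SE 0.21, limma adjusted p = 7.7e-12) and -1.02 with SLC6A4 (SE 0.15, limma adjusted p = 9.9e-05), and the direct difference of DDC from SLC6A4 was -2.58 (SE 0.20, limma adjusted p = 6.9e-09). The exons of CLDN7 share 269 bases with ENSG00000262302 on the same strand and 38 bases with ELP5 on the other, and use of strand in counting is not given in the sources used here. ENSG00000262302 had 39 reads over the DDC, 113 over the SLC6A4 and 180 over the empty-vector libraries, while ELP5 had 5190, 5120 and 4507; the part of shared reads in the CLDN7 values was not tested.

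CLDN1 (ENSG00000163347, chromosome 3: 190305707 to 190322446), the barrier-forming claudin of skin and many glands, had 13.5, 4.40 and 17.9 normalised reads in DDC, 18.6, 23.6 and 27.9 in SLC6A4, and 64.8, 34.8 and 32.0 in empty-vector libraries. Every library of either line lay under every empty-vector library, and 1 empty-vector library stood well above the other two. CLDN1 changed by -1.90 with DDC (SE 0.37, limma adjusted p = 0.00069) and by -0.83 with SLC6A4 (SE 0.26, limma adjusted p = 0.034) on the log2 scale. The call with SLC6A4 was lost without empty-vector replicate 1 (log2 -0.52, adjusted p = 0.205), without SLC6A4 replicate 1 (0.116) or 2 (0.0715), and with DESeq2 (0.110). These counts were low, 35 reads over the 3 DDC libraries, 74 over SLC6A4 and 132 over empty vector.

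CLDN4 (ENSG00000189143, chromosome 7: 73799542 to 73832690), abundant in glandular epithelia, had 2459, 3049 and 2951 normalised reads in DDC, 3029, 3772 and 3657 in SLC6A4, and 5992, 5140.1 and 4396 in empty-vector libraries. Neither line overlapped the empty vector, while the lowest SLC6A4 library lay under the highest DDC library. Its log2 change was -0.87 with DDC (SE 0.10, limma adjusted p = 8.5e-07) and -0.56 with SLC6A4 (SE 0.09, limma adjusted p = 0.00025). The lines differed by -0.31 (SE 0.10), just short of the threshold (limma adjusted p = 0.0507); edgeR with TMM (0.0497), DESeq2 (0.0442) and a pseudocount of 5 (0.0458) put it past.

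CLDN3 and CLDN12 did not pass the test in any RNA comparison. CLDN3 (ENSG00000165215, chromosome 7: 73768997 to 73770270), a strand-forming claudin, had 8.31, 7.70 and 13.9 normalised reads in DDC, 10.2, 4.54 and 0 in SLC6A4, and 17.5, 10.9 and 9.50 in empty-vector libraries. The groups overlapped, and the SLC6A4 library at 0 reads allows up to 2.99 normalised reads (3 counts, counting error only). Its log2 change with SLC6A4 was -1.75 (SE 0.66, limma adjusted p = 0.072). It was -0.75 without SLC6A4 replicate 3, the library at 0 reads (adjusted p = 0.273), and -0.96 with a pseudocount of 5 (0.0627), and it passed with no filter on low values (0.0345). CLDN12 (ENSG00000157224, chromosome 7: 90383721 to 90513402), a claudin without the usual scaffold-binding end, had 28.6 to 42.6 normalised reads in DDC, 37.9 to 48.4 in SLC6A4 and 34.6 to 49.4 in empty-vector libraries, with changes of -0.23 and 0.14.

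Among the other membrane proteins, F11R fell in both lines. F11R (ENSG00000158769, chromosome 1: 160995211 to 161021343) had 139, 146 and 123 normalised reads in DDC, 155, 153 and 173 in SLC6A4, and 247, 297 and 251 in empty-vector libraries. Every DDC library lay under every SLC6A4 library, and both groups lay under the empty vector. The log2 changes were -0.95 with DDC (SE 0.12, limma adjusted p = 4.0e-06) and -0.71 with SLC6A4 (SE 0.10, limma adjusted p = 7.3e-05), and the lines differed by -0.24 (SE 0.11, limma adjusted p = 0.19). The readthrough gene ENSG00000270149 shares 1853 bases of F11R exon; it had 238 reads over DDC, 333 over SLC6A4 and 552 over empty-vector libraries, and how reads were split between the pair is not given in the sources used here.

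OCLN (ENSG00000197822, chromosome 5: 69492292 to 69558104) had 28.05, 31.9 and 24.9 normalised reads in DDC, 33.5, 29.95 and 32.9 in SLC6A4, and 42.2, 54.5 and 44.1 in empty-vector libraries. Both lines lay under the empty vector and overlapped each other. Its change was -0.70 with DDC (SE 0.21, limma adjusted p = 0.022) and -0.53 with SLC6A4 (SE 0.19, limma adjusted p = 0.061). The call with DDC was lost without empty-vector replicate 2 (adjusted p = 0.121), without DDC replicate 3 (0.0750) and with DESeq2 (0.171). The pseudogene OCLNP1 took 1, 2 and 3 reads over the DDC, SLC6A4 and empty-vector libraries. MARVELD2 (ENSG00000152939, chromosome 5: 69415065 to 69444330) had 47.7 to 62.3 in DDC, 48.8 to 62.3 in SLC6A4 and 46.3 to 74.1 in empty-vector libraries, groups that overlapped, with a change of -0.23 in each line.

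Of the plaque proteins, TJP1 (ENSG00000104067, chromosome 15: 29699367 to 29968915) had 110.1, 90.2 and 85.5 normalised reads in DDC, 134, 125 and 126 in SLC6A4, and 128, 118 and 132 in empty-vector libraries. DDC libraries lay under all others, and SLC6A4 overlapped the empty vector. The change with DDC was -0.40 (SE 0.14) and missed the threshold (limma adjusted p = 0.052), while that with SLC6A4 was 0.03 (SE 0.11). The change with DDC passed with edgeR and TMM (0.0449), with library size alone (0.0247) and without DDC replicate 1 (0.0249). The direct difference of DDC from SLC6A4, -0.43 (SE 0.13), passed (limma adjusted p = 0.026). That call was lost with DESeq2 (0.108) and without any of 5 libraries, DDC replicate 2 (0.0822) or 3 (0.0927) or SLC6A4 replicate 1 (0.0905), 2 (0.0614) or 3 (0.0641). CGN (ENSG00000143375, chromosome 1: 151510510 to 151538692) was barely detected, with 7 reads over the DDC, 14 over the SLC6A4 and 16 over the empty-vector libraries.

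**Figure D2:**
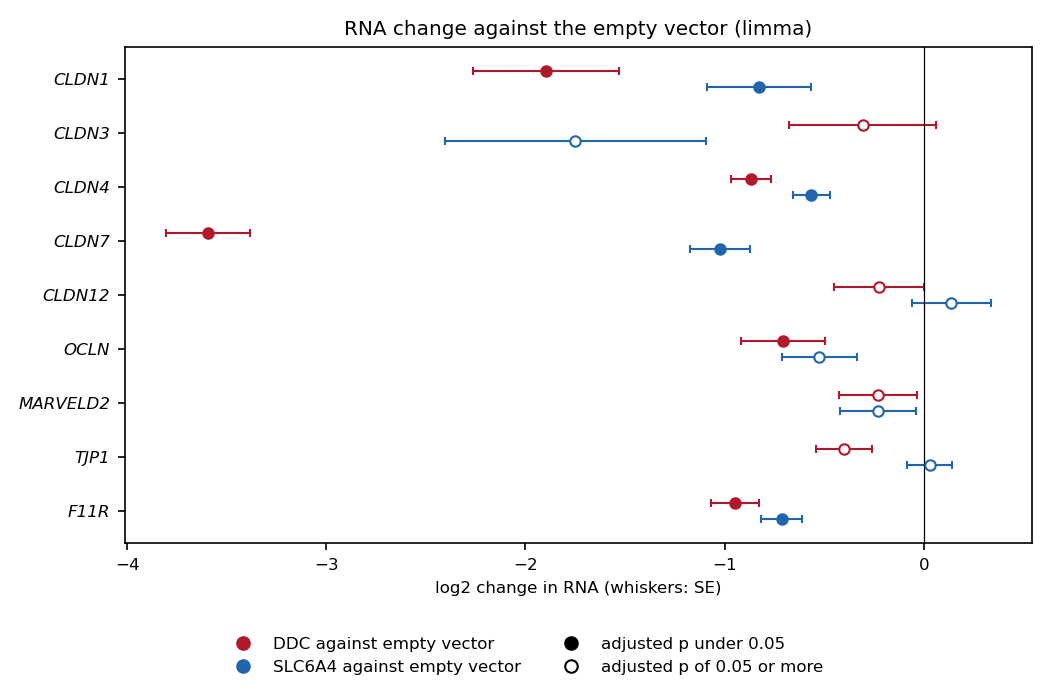
Log2 change in RNA against the empty vector for the 9 tested genes, with DDC drawn above SLC6A4 in each row and whiskers for the SE; filled points passed an adjusted p of 0.05. CLDN7 with DDC stands apart at -3.59, and the wide whisker of CLDN3 with SLC6A4 belongs to the group with a library at 0 reads.

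With the groups set against each other, 6 of the 9 tested genes (CLDN1, CLDN4, CLDN7, OCLN, TJP1 and F11R) did not overlap between DDC and empty vector, beside 33.3% of all tested genes. Between SLC6A4 and empty vector 5 did not (the same genes without TJP1), beside 34.9%. Between DDC and SLC6A4 2 of 9, CLDN7 and TJP1, were called, both lower in DDC, beside 13.2% of 13544 genes called, 6.74% lower and 6.47% higher. There 4 of the 9 (CLDN1, CLDN7, TJP1 and F11R) did not overlap, beside 28.7%, and CLDN1 missed at -1.08 (limma adjusted p = 0.055). Of all genes called in that comparison 49.0% were higher, and 28.5% with scaling by library size alone. The authors' deposited table gave an adjusted p under 0.05 to CLDN7, CLDN4, F11R and CLDN1 with DDC and to F11R, CLDN7 and CLDN4 with SLC6A4.

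Beyond these 10, 65 other tight junction genes were listed, of which 30 were tested in each comparison with the empty vector. These lists, and those of regulators and adherens junction genes below, were likewise chosen with earlier results of these data known. With DDC 5 of the 30 fell and 0 rose (16.7% called), beside 17.4% of all genes called, 8.41% lower and 8.94% higher. With SLC6A4 4 fell and 4 rose (26.7% called), beside 19.4% of all genes called, 9.28% lower and 10.2% higher. Among 13 other membrane proteins 3 were tested and 2 fell in both lines. CXADR, the coxsackievirus and adenovirus receptor, averaged 3.10 in DDC, 8.47 in SLC6A4 and 25.4 normalised reads in empty-vector cells (log2 -2.69 and -1.50). LSR, which marks tricellular corners as angulin-1, averaged 24.6, 33.3 and 53.7 (log2 -1.13 and -0.67).

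Of 21 other claudins 4 were tested. CLDN11, known from myelin and the testis barrier, averaged 1304 normalised reads in DDC, 3327 in SLC6A4 and 1796 in empty-vector cells; it fell with DDC (log2 -0.47, limma adjusted p = 0.0083) and rose with SLC6A4 (log2 0.89), and the lines differed by -1.37 (SE 0.13). CLDND1, a claudin-like protein, fell in both (-0.64 and -0.48), and CLDN14 and CLDN15 did not pass. Of 31 scaffold and signalling genes 23 were tested: the polarity kinase PRKCI fell with DDC (-1.01), while with SLC6A4 the polarity scaffold PALS1 (0.54), the angiomotin-like AMOTL2 (0.67) and HEG1 (0.58) rose and the small GTPase RAB13 fell (-0.23).

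Regulators known to act on junction genes moved in both directions. Of 18 listed, 7 were tested with DDC and 8 with SLC6A4, and the same 3 passed in each. SNAI2 (Slug), a repressor of epithelial genes, averaged 226 normalised reads in DDC, 201 in SLC6A4 and 123 in empty-vector cells and rose by 0.87 and 0.70. The epithelial splicing factor ESRP1 averaged 4.32, 16.1 and 38.7 and fell (-3.27 and -1.28), and the epithelial transcription factor ELF3 averaged 41.5, 39.5 and 79.6 and fell (-0.92 and -1.01). Neither the repressor ZEB1 nor OVOL2, which maintains epithelial expression, passed with DDC (-0.02 and -0.25). Of 13 adherens junction genes 12 were tested. With DDC 5 fell and 0 rose, beside 8.41% of all genes lower and 8.94% higher, with CDH1 (E-cadherin, -3.54) and CDH3 (P-cadherin, -3.25) changed most. With SLC6A4 5 fell and 1, CDH2 (N-cadherin, 0.44), rose, beside 9.28% lower and 10.2% higher.

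The genes whose RNA profile was nearest to that of CLDN7 over the 9 libraries, among 13543 others, were CDH3, KDF1, ST14, CDH1 and C1orf210. Their root mean square distances on the centred log2 scale were 0.34 to 0.37. The membrane protease ST14 (matriptase) changed by -3.47 with DDC and -0.96 with SLC6A4, and KDF1, a regulator of keratinocyte differentiation, by -3.40 and -0.55. Likeness of profile is a description over these libraries, which CLDN7 shares with them.

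At the promoters, H3K4me3Q5ser changed in both directions among these genes, and RNA and mark did not always move alike. CLDN1 lost the mark in both lines, CLDN12, TJP1, F11R and CGN lost less of it in both, and CLDN4, CLDN3 and a long region shared by CLDN7 and 5 other genes gained it with SLC6A4. Each gene was read from the deposited H3K4me3Q5ser region within 1000 bp of the MANE Select start, which all 10 have. With DDC 7 of 10 regions were called, 5 lower and 2 higher, beside 61.2% of all 19535 regions, 31.5% lower and 29.7% higher. With SLC6A4 9 of 10 were, 6 lower and 3 higher, beside 82.5%, 41.5% lower and 41% higher. So a call alone says little here, and sizes are given. Scaling was within these regions, so lost and gained mean relative to the other regions. A change shared by all regions would not show. For H3K4me3Q5ser, read pairs in regions numbered 13511040 to 16654117 in DDC, 19959292 to 24765380 in SLC6A4 and 24122654 to 24436783 in empty-vector libraries. The median log2 change of the 10 was -0.16 with DDC and -0.15 with SLC6A4, against 0.0022 and -0.0078 over all regions.

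**Figure D3:**
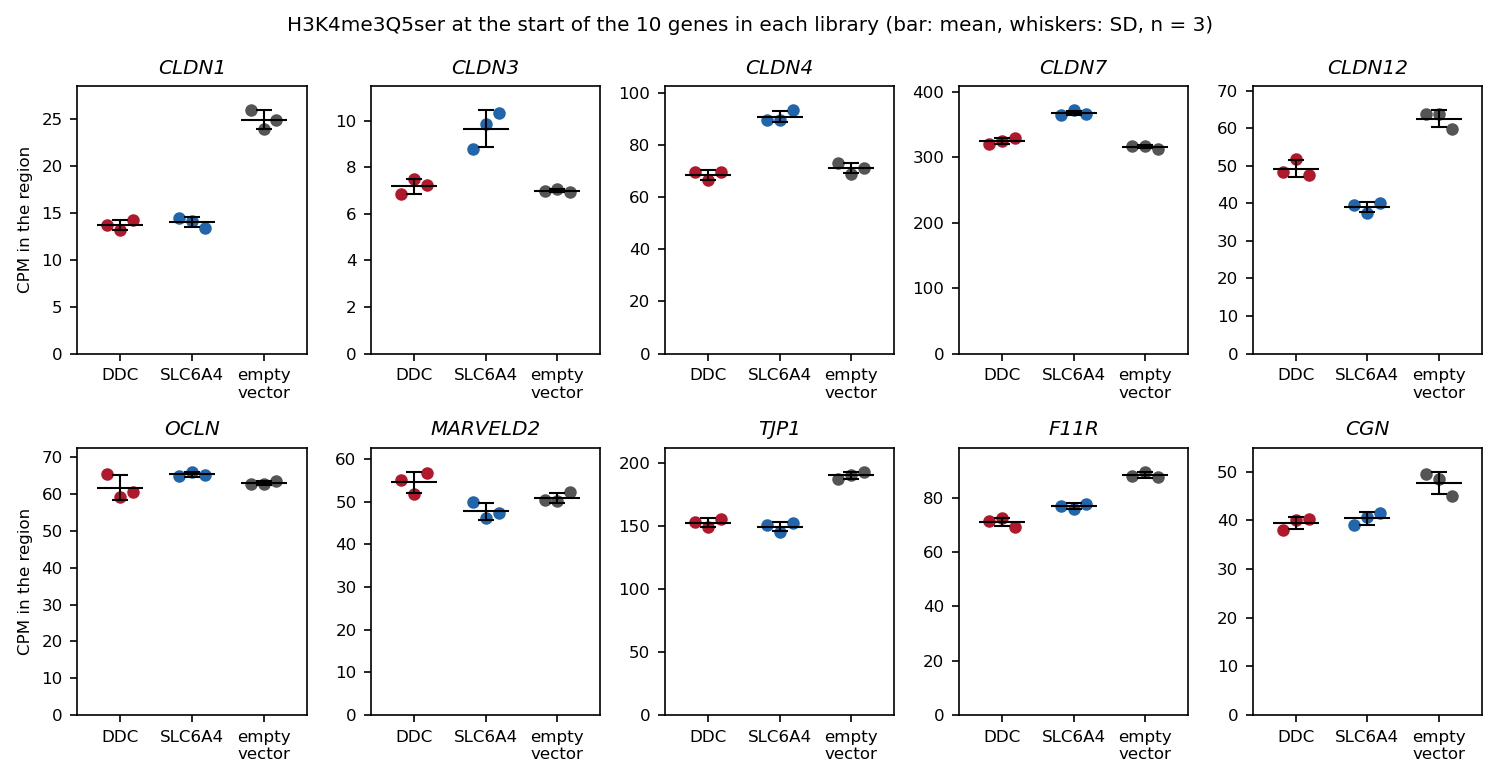
H3K4me3Q5ser in the region at each gene's start, in CPM (read pairs scaled to the library's total in regions), with 1 point per library, a bar at the mean and whiskers for the SD (n = 3). CLDN1 lies at 13.2 to 14.3 CPM in DDC, 13.4 to 14.4 in SLC6A4 and 23.9 to 25.9 in empty-vector libraries.

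CLDN1 had 13.7, 13.2 and 14.3 CPM of H3K4me3Q5ser in DDC, 14.4, 14.1 and 13.4 in SLC6A4 and 25.9, 23.9 and 24.8 in empty-vector libraries (chromosome 3: 190320051 to 190322905). Both lines lay far under the empty vector and overlapped each other. The log2 changes were -0.86 with DDC (SE 0.06, edgeR adjusted p = 2.5e-24) and -0.84 with SLC6A4 (SE 0.06, edgeR adjusted p = 2.3e-27), and the lines did not differ detectably (-0.03, SE 0.07). In the input, CLDN1 had 33.7, 41.9 and 39.6 CPM in DDC and 46.3, 48.2 and 37.9 in empty-vector libraries, which overlap (log2 -0.19, edgeR adjusted p = 0.50).

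CLDN12, whose RNA did not pass, had 48.3, 51.9 and 47.4 CPM of H3K4me3Q5ser in DDC, 39.4, 37.5 and 40.1 in SLC6A4 and 63.7, 63.8 and 59.9 in empty-vector libraries. No group overlapped another. Its changes were -0.34 with DDC (SE 0.04, edgeR adjusted p = 2.1e-14) and -0.68 with SLC6A4 (SE 0.04, edgeR adjusted p = 1.5e-35). The input there was 74.9, 66.9 and 51.9 CPM in DDC against 73.8, 86.4 and 81.3 in empty-vector libraries, overlapping, with a change of -0.29 that missed the threshold (edgeR adjusted p = 0.088) and passed without DDC replicate 1 (-0.42, 0.0339). Its part in the change of the mark with DDC was not tested.

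CLDN4, whose RNA fell in both lines, was not called lower for the mark in either, relative to the other regions. It had 69.4, 66.4 and 69.5 CPM in DDC, 89.5, 89.6 and 93.3 in SLC6A4 and 72.9, 69.0 and 71.2 in empty-vector libraries. DDC overlapped the empty vector (log2 -0.05, edgeR adjusted p = 0.14), and SLC6A4 lay above both (0.36, SE 0.03, edgeR adjusted p = 1.2e-22). CLDN3, at the faintest region of the 10, had 6.84, 7.49 and 7.24 CPM in DDC, 8.79, 9.84 and 10.3 in SLC6A4 and 6.98, 7.08 and 6.94 in empty-vector libraries, and rose with SLC6A4 (0.47, SE 0.09). CLDN7 cannot be read alone: its region runs from 7228005 to 7264682 on chromosome 17, 36678 bp, over the starts of CTDNEP1, DVL2, ELP5, GABARAP and PHF23 too. That region changed by 0.04 with DDC and 0.22 with SLC6A4; the call with DDC was lost without DDC replicate 2 (adjusted p = 0.0602) or 3 (0.167) or empty-vector replicate 3 (0.113).

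TJP1, F11R and CGN fell by smaller amounts in both lines. TJP1 had 153, 149 and 156 CPM in DDC, 150.4, 145 and 152 in SLC6A4 and 187, 190.0 and 193 in empty-vector libraries, a change of -0.32 with DDC and -0.35 with SLC6A4. F11R changed by -0.31 and -0.20, and CGN by -0.27 and -0.23, each with every library of either line under every empty-vector library. MARVELD2 was 0.10 higher with DDC and 0.09 lower with SLC6A4 on the log2 scale, and OCLN did not pass in either (-0.03 and 0.05). The MARVELD2 calls were each lost without some single libraries, with DDC at adjusted p = 0.0544 to 0.138 and with SLC6A4 at 0.0768 to 0.113, and with DESeq2 for SLC6A4 (0.0732).

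**Figure D4:**
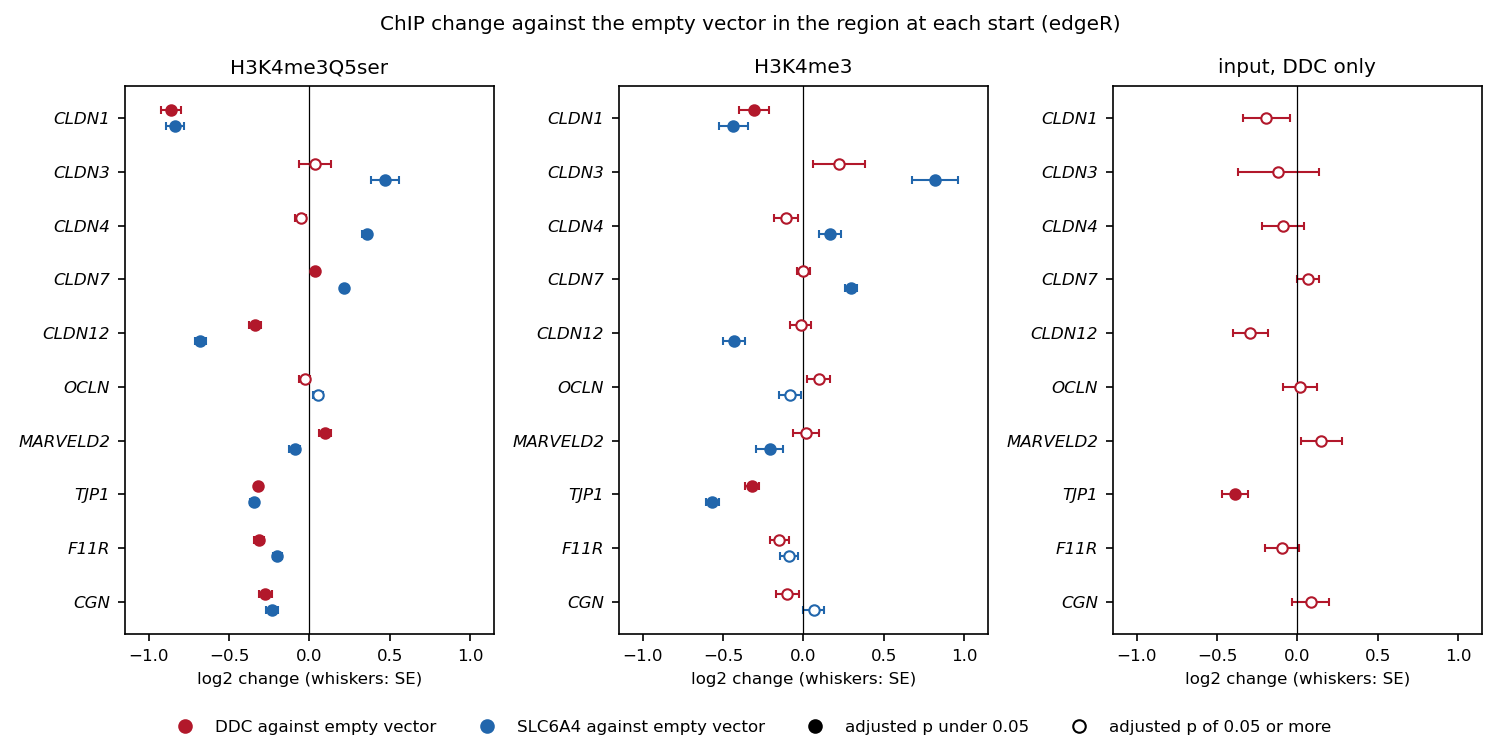
Log2 change of H3K4me3Q5ser, H3K4me3 and input against the empty vector in the region at each start, with DDC drawn above SLC6A4, whiskers for the SE and filled points for an adjusted p under 0.05; input is for DDC alone. CLDN1 is lowest for H3K4me3Q5ser in both lines, at -0.86 and -0.84, and TJP1 is the single filled point of the input, at -0.39.

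For H3K4me3, TJP1 and CLDN1 were lower in both lines. With DDC these were the 2 of 10 regions called, both lower, beside 17.6% of 18972 regions, 9.39% lower and 8.24% higher. With SLC6A4 7 were called, 4 lower and 3 higher, beside 61.5%, 29.6% lower and 31.9% higher. CLDN1 had 35.9, 33.1 and 40.6 CPM in DDC, 32.9, 33.2 and 34.5 in SLC6A4 and 50.6, 43.3 and 43.5 in empty-vector libraries, with neither line overlapping the empty vector. It changed by -0.31 with DDC (SE 0.09, edgeR adjusted p = 0.0075) and by -0.44 with SLC6A4 (SE 0.09, edgeR adjusted p = 3.1e-06). The call with DDC was lost without DDC replicate 2 (0.0980), without empty-vector replicate 1 (0.0935) and with DESeq2 (0.0599).

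TJP1 had 176, 179.5 and 180.3 CPM of H3K4me3 in DDC, 159, 143 and 151 in SLC6A4 and 232, 223 and 216 in empty-vector libraries. The groups did not overlap, and the changes were -0.32 with DDC (SE 0.04) and -0.57 with SLC6A4 (SE 0.04). The input of TJP1 moved with them: 125, 115 and 113 CPM in DDC against 145, 159 and 159.8 in empty-vector libraries, without overlap. At -0.39 (SE 0.08, edgeR adjusted p = 0.00014) TJP1 was the 1 member of 10 called in the input, beside 6.3% of 18025 regions, 3.61% lower and 2.69% higher, and the part of the input in the falls of both marks was not tested. SLC6A4 input is not used here. A separate region at the far upstream start of TJP1 (chromosome 15: 29967430 to 29968781) changed otherwise, with H3K4me3Q5ser at -0.59 for DDC and 0.49 for SLC6A4.

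CLDN3 rose most in H3K4me3 with SLC6A4, at 23.3, 20.1 and 20.8 CPM in SLC6A4 against 9.12, 12.97 and 13.5 in empty-vector libraries, with 13.2, 12.4 and 16.3 in DDC. Its SLC6A4 libraries lay above the rest (log2 0.82, SE 0.14, edgeR adjusted p = 3.3e-08). Counts at CLDN3 were low, 31 to 57 read pairs in empty-vector and 101 to 123 in SLC6A4 libraries, and no H3K4me3 peak was listed at its start. In empty-vector cells the region averaged 11.9 CPM of H3K4me3 and 14.8 CPM of input. The part of background in the rise was not tested. CLDN12 fell with SLC6A4 (-0.43) and stayed within the empty-vector range with DDC (-0.02, edgeR adjusted p = 0.90). The shared CLDN7 region rose (0.29), as did CLDN4 (0.16), and MARVELD2 fell (-0.21). The calls of CLDN4 and MARVELD2 were lost with DESeq2 (0.143 and 0.0631), without SLC6A4 replicate 3 (0.0594 and 0.114) and without empty-vector replicate 1 (0.196 and 0.0872), and that of CLDN4 also without empty-vector replicate 2 (0.0914). F11R, CGN and OCLN did not pass in either line. Without empty-vector replicate 3, F11R passed as lower with DDC (-0.20, edgeR adjusted p = 0.0271) and with SLC6A4 (-0.14, edgeR adjusted p = 0.0461).

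The lines differed from each other in 7 of 10 regions for H3K4me3Q5ser, 5 lower and 2 higher in DDC, beside 76.9% of all, 38.9% lower and 38% higher. For H3K4me3 they differed in 8 of 10, 4 lower and 4 higher, beside 60.2%, 30.9% lower and 29.3% higher. For H3K4me3Q5ser and H3K4me3 in turn, DDC minus SLC6A4 was -0.43 and -0.60 at CLDN3, -0.41 and -0.27 at CLDN4, 0.34 and 0.42 at CLDN12, and -0.18 and -0.29 at the shared CLDN7 region. A separate test asked whether H3K4me3Q5ser changed by another amount than H3K4me3. It treated the libraries of both marks as independent, and whether they share chromatin was not checked. With DDC it did at CLDN1 (-0.54, SE 0.11, edgeR adjusted p = 7.1e-05) and CLDN12 (-0.32, SE 0.08, edgeR adjusted p = 0.00092), 2 of 10 both lower, beside 15% of 19529 regions, 9.88% lower and 5.15% higher, and CLDN12 lost the call without replicate 3 (0.0842). With SLC6A4 5 of 10 passed beside 29.2%, 14.7% lower and 14.5% higher: CLDN1 (-0.40), CGN (-0.30) and CLDN12 (-0.24) lower, and TJP1 (0.22) and CLDN4 (0.19) higher. Of these, TJP1 alone kept its call without each replicate number in turn. CLDN1 was lost without replicate 3 (0.106), CGN without replicate 1 (0.102), CLDN12 without 2 (0.0578) or 3 (0.109) and CLDN4 without 2 (0.129) or 3 (0.376) and with scaling by library size alone (0.277). Of all regions called with SLC6A4 49.5% were higher, and 23.5% with scaling by library size alone.

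**Figure D5:**
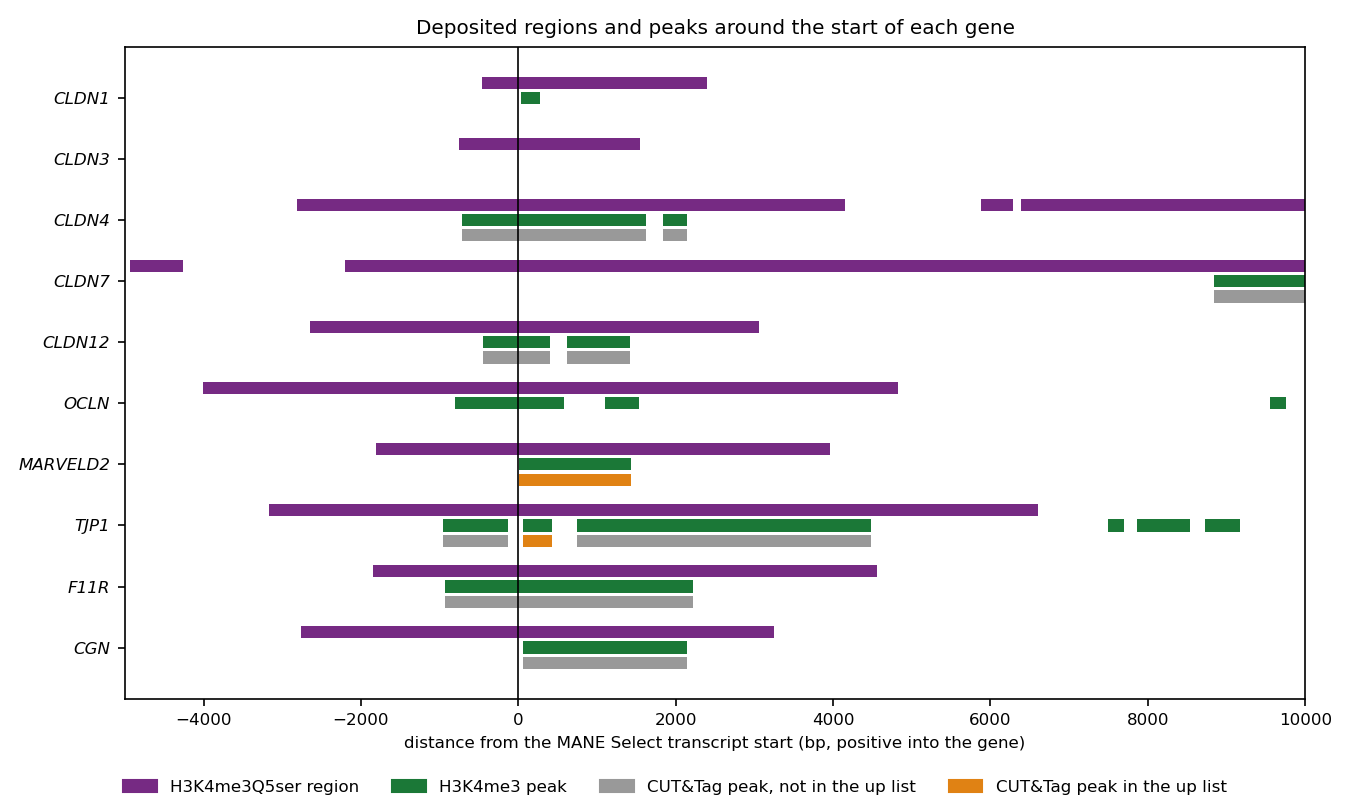
Deposited H3K4me3Q5ser regions, H3K4me3 peaks and CUT&Tag peaks around each gene, by distance in bp from the MANE Select start (positive into the gene). Each gene has an H3K4me3Q5ser region over its start, of 2303 bp at CLDN3 and 36678 bp at CLDN7, and neither CLDN3 nor CLDN7 has an H3K4me3 peak there.

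Which samples each peak list was called on is not given in the sources used here, so the lists describe presence and not change. The lists held 19535 H3K4me3Q5ser regions and 26514 H3K4me3 peaks. The share of all gene starts with a region or peak was not counted. The numbers for the 10 genes, CUT&Tag lists included, therefore cannot be set against other genes. Within 1000 bp of the gene record's start, 8 of the 10 genes had an H3K4me3Q5ser region, 7 an H3K4me3 peak and 7 a region of the list deposited as overlapped. At the MANE Select start, a choice made after seeing that the records of CLDN4, CLDN12 and TJP1 begin 31454, 19740 and 146447 bp away from it, these numbers were 10, 8 and 9. CLDN3 and CLDN7 were the ones without an H3K4me3 peak. CLDN1 had a single short peak, 33 to 279 bp downstream of the start, while that of F11R ran from -936 to 2218 bp.

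In the CUT&Tag lists, MARVELD2 had its peak in the list deposited as up, and TJP1 had 1 such peak between 2 in the other list. Values were deposited for peaks of the other list, with no replicate. The F11R peak had 28.8 CPM in SLC6A4 cells with shTGM2, 32.5 in SLC6A4 and 34.1 in empty-vector cells, and the CGN peak 19.3, 22.3 and 21.8. At the MANE Select start the CLDN4 peak had 80.8, 73.9 and 68.2 CPM, and the larger TJP1 peak 36.7, 35.5 and 33.2. CLDN12 had 2 small peaks, the larger at 10.4, 12.3 and 12.6 CPM. The smaller CLDN12 peak had 3.75, 4.12 and 4.78 CPM, and the smaller TJP1 peak 13.7, 14.7 and 13.1. Over all 7 peaks, SLC6A4 over empty vector ran from -0.22 to 0.17 on the log2 scale, inside the -0.32 to 0.30 that held the middle 90% of all 13882 peaks. Knockdown over SLC6A4 ran from -0.25 to 0.13, inside -0.40 to 0.18. All 13882 peaks are of the other list, labelled Q5nondependent by the submitters, and up-list peaks have no values here. Lying inside these ranges therefore says little about the response to knockdown.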

How the data were processed

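RNA values are a deposited signal: reads per gene divided by 1 size factor per library, as the values themselves and the DESeq2 columns of the file headers show. The submitters' processing notes name HISAT2 2.1.0, DESeq2 and GRCh38. The low values gave whole reads for 100% of values in all 9 libraries (tolerance 1e-06). On those reads edgeR with TMM called 2312 genes for DDC, 2594 for SLC6A4 and 1812 for DDC against SLC6A4. Genes with at least 10 normalised reads in at least 3 libraries were tested on log2(value + 1) with limma 3.58.1 and Benjamini-Hochberg adjustment at 0.05, each line with the empty vector in its own deposited table; DDC against SLC6A4 used the recovered reads scaled over 9 libraries. Fold changes are on the log2(value + 1) scale, and for low genes their size depends on the pseudocount. Reads per kilobase use GENCODE 44 MANE Select lengths.

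ChIP values are deposited estimated counts of read pairs per region (featureCounts 2.0.3 with fractional sharing, per the file headers); 9.78% were not whole and all were rounded. They were tested with edgeR 4.0.16, quasi-likelihood with TMM scaling. The headers record a strand setting beside regions without strand. Regions at the MANE Select start were chosen after seeing the data. CUT&Tag values are deposited CPM per peak, with no test. Log2 changes and p-values printed as the authors' come from the deposited comparison tables, and scores in the deposited peak lists were not used.

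Members and gene lists were chosen with earlier results of these data known. Named genes were all members, list genes past the threshold (for adherens junction genes in SLC6A4, the 5 with smallest p), and the 5 profiles nearest to CLDN7; other list genes named were chosen after their values were seen. Intervals and the 3-count limit cover counting error only. The replicate numbers were checked for pairing between lines, within RNA, within each mark and within input, and did not pair the samples there. Whether libraries of both marks and input with the same line and number share chromatin was not checked. The steps were tested on simulated data. The other 8 CUT&Tag libraries and the SLC6A4 input were not analysed here. Alternatives were other scalings, filters and tools, and leaving out each library or, in the test between marks, each replicate number.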

Additional observations from a re-analysis of the deposited data

Results flagged for a closer look

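Each value here was picked out because the direct difference of DDC from SLC6A4 cells passed the test. The lines thus differed in their change against the shared empty vector. A transgene and the line that carries it cannot be told apart here. In RNA these were CLDN7 (log2 -2.58) and TJP1 (-0.43). For H3K4me3Q5ser, DDC was lower than SLC6A4 at CLDN3 (-0.43), CLDN4 (-0.41), the shared CLDN7 region (-0.18), F11R (-0.11) and OCLN (-0.081), and higher at CLDN12 (0.34) and MARVELD2 (0.19). For H3K4me3, DDC was lower at CLDN3 (-0.60), CLDN7 (-0.29), CLDN4 (-0.27) and CGN (-0.16), and higher at CLDN12 (0.42), TJP1 (0.25), MARVELD2 (0.23) and OCLN (0.18). The calls at OCLN for both marks and at CGN and MARVELD2 for H3K4me3 were lost with DESeq2 (edgeR was the main test) and without some single libraries. With scaling by library size alone, the H3K4me3Q5ser calls at F11R (-0.061, adjusted p = 0.0724) and OCLN (-0.029, 0.446) and the H3K4me3 call at OCLN (0.144, 0.0606) were lost.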

How the results depend on the processing

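Of 1212 member values recomputed under other settings, 1100 kept direction and side of the threshold, 61 lost and 23 gained the call, and 28 changed sign; the cause was not tested. DESeq2 called 1470 genes in RNA with DDC (limma 2281), 1686 with SLC6A4 (2579), 1633 regions of H3K4me3 with DDC (edgeR 3344; members lower 1) and 214 of input (1135), and 2 members higher for H3K4me3 in DDC against SLC6A4. Library size alone gave 3 members lower for H3K4me3Q5ser in DDC against SLC6A4, and 1 higher and 6 lower in the SLC6A4 test between marks. With the start inside the peak, 2 genes had H3K4me3 peaks, 1 a CUT&Tag peak of the other list and 0 of the up list; by any transcript start or the MANE start the CUT&Tag numbers were 5 and 2, and 5 had CUT&Tag values.

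Leaving out single libraries gave, for RNA, 1543 to 2088 genes and 4 to 6 members lower with DDC, 1929 to 2359 and 3 to 4 with SLC6A4, and 1243 to 1669 with 1 to 2 lower and 0 to 1 higher in DDC against SLC6A4. For H3K4me3Q5ser with DDC 0 to 1 were higher. For H3K4me3, 1 to 3 were lower with DDC, 3 to 5 lower and 2 to 3 higher with SLC6A4, and 3 to 4 lower and 2 to 4 higher in DDC against SLC6A4. Input gave 714 to 853 regions and 1 to 2 members lower. The test between marks was instead rerun without 1 replicate number at a time, for both marks and all 3 lines together. It gave 1605 to 1924 regions and 1 to 2 lower with DDC, and 3851 to 4376 with 1 to 3 lower and 1 to 2 higher with SLC6A4.

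Sign changes were all in values that did not pass. With library size alone they were TJP1 RNA with SLC6A4 (-0.012), OCLN H3K4me3Q5ser with SLC6A4 (-0.0028), and CLDN1 (0.026) and CGN (0.013) H3K4me3Q5ser in DDC against SLC6A4. CLDN7 H3K4me3 with DDC became -0.0042 with DESeq2 size factors, -0.0031 with library size, -9.4e-05 with no filter and -0.0035 with DESeq2. Without single libraries, TJP1 RNA with SLC6A4 ran from -0.018 to 0.068 and MARVELD2 RNA in DDC against SLC6A4 from -0.116 to 0.106. H3K4me3Q5ser ran from -0.078 to 0.0073 at OCLN with DDC and from -0.056 to 0.0041 at CLDN1 in DDC against SLC6A4. H3K4me3 with DDC ran from -0.014 to 0.033 at CLDN7, -0.047 to 0.052 at MARVELD2 and -0.096 to 0.032 at CLDN12, and with SLC6A4 from -0.026 to 0.143 at CGN. Input ran from -0.105 to 0.11 at OCLN, -0.278 to 0.068 at CLDN3 and -0.0036 to 0.15 at CGN, and the test between marks with DDC from -0.036 to 0.041 at TJP1.

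With the replicate number as a block, RNA calls were 2369 with DDC, 2497 with SLC6A4 (CLDN3 gained, adjusted p = 0.0189) and 1720 in DDC against SLC6A4 (CLDN1 gained, 0.0439). ChIP calls with the block were 11909, 16083 and 14997 for H3K4me3Q5ser, 3339, 11662 and 11410 for H3K4me3, and 1128 for input. Between lines, same-number correlations of deviations ran from -0.13 to 0.027, and 0 of 6, 2 of 6 and 0 of 6 RNA libraries correlated best with their own number. The SLC6A4 input comparisons were not run. Low counts limit CLDN1, CLDN3 and CGN.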
